A study of Mus musculus with 9 samples.

Results

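The 38 genes described here act in DNA replication or in mitosis. They were named as a list, with 16 genes for replication and the passage from G1 to S phase and 22 genes for mitosis, and each was found by its mouse symbol among the 57010 genes of a count table. All 38 passed the filter on low counts and were tested, as were 14747 genes in all. The counts came from RNA sequencing of primary cultured renal cells, which are mixed cultures grown from digested whole kidneys of wild-type mice. Cells of 3 libraries received 20 ng/mL TNFα together with 1 µM ACHP for 6 h, cells of 3 libraries received 20 ng/mL TNFα alone for 6 h, and cells of 3 libraries received PBS. TNFα is an inflammatory cytokine, and ACHP is an inhibitor of the IκB kinase that links TNFα receptors to the transcription factor NF-κB. A group given ACHP alone was not analysed here. Whether the replicates of a group came from separate animals or cultures is not stated in the labels, so p-values measure the spread between these libraries, which may be technical.

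A dividing cell copies its DNA in S phase and separates the copies in mitosis, and different genes are switched on for each step. At the passage from G1 to S phase, cyclins D and E release E2F transcription factors, which raise genes of the replication machinery, such as the MCM helicase and the enzymes that make deoxynucleotides. Genes for chromosome condensation, the spindle and the exit from mitosis are transcribed later. This occurs largely through a complex of B-MYB and the DREAM core with FOXM1, which acts at CHR elements of their promoters. Tubule cells of the kidney divide rarely in the intact organ and enter the cycle after injury and in culture.

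Promoter windows of these genes were searched for 3 motifs known from cell cycle promoters. Shown are 4 promoters, because their genes had the smallest unadjusted p of each set in the comparison of TNFα with PBS. The sequences are from RefSeq on GRCm38.p6 and run from 250 bases before to 50 bases after the annotated start of transcription, 5′ to 3′ on the strand of the gene. Capitals mark matches, on either strand, to these motifs: the cell cycle genes homology region CHR (TTTGAA or TTCGAA), the E2F element (TTTCCCGC, TTTCGCGC, TTTGGCGC or TTTGCCGC) and the CCAAT box (CCAAT). The Mcm6 window lies at chr1:128359656-128359955 on the minus strand, the Rrm1 window at chr7:102441445-102441744 on the plus strand, the Kif23 window at chr9:61946750-61947049 on the minus strand, and the Top2a window at chr11:99024140-99024439 on the minus strand.
Mcm6: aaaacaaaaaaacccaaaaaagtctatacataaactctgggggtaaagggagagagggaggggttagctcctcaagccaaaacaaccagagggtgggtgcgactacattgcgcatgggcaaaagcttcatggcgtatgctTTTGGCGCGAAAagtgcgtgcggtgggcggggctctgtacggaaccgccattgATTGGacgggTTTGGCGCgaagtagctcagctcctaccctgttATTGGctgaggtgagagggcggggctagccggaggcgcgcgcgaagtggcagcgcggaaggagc
Rrm1: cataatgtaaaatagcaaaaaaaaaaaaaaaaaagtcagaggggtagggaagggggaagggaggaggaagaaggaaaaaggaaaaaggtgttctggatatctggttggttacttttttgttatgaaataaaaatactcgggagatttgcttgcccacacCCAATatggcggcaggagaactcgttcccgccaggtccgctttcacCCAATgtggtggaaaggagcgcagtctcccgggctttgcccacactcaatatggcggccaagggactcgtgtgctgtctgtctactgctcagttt
Kif23: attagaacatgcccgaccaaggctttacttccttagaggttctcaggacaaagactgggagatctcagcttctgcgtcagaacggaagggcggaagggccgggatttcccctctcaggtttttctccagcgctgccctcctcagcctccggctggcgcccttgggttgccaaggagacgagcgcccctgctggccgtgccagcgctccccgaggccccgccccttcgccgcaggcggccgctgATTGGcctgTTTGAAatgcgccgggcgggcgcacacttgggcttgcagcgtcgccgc
Top2a: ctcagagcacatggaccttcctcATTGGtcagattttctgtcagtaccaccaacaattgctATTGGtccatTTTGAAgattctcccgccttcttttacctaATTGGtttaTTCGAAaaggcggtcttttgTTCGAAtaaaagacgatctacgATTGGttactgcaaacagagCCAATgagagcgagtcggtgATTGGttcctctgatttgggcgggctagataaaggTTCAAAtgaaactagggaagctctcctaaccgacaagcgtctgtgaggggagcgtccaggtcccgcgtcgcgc
Mcm6, a subunit of the replicative helicase, had 3 E2F matches, of which a pair overlap on opposite strands, and 2 CCAAT boxes. Rrm1, the large subunit of ribonucleotide reductase, had 2 CCAAT boxes and no E2F match. Kif23, a kinesin of the central spindle, had 1 CHR match and 1 CCAAT box, and Top2a, the topoisomerase that untangles replicated chromosomes, had 4 CHR matches and 6 CCAAT boxes.

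A promoter window was found for 31 of the 38 genes, which gave 33 windows of 300 bases, since Mcm7 and Prc1 had 2 each. The Prc1 windows, chr7:80294201-80294500 and chr7:80294226-80294525, share most of their bases, and both count below for CHR and CCAAT. No window was found for Foxm1, Aurkb, Ccnd1, Mcm4, Ccne2, Ccna2 and Tpx2. A CHR match was present in 15 of 19 windows of mitosis genes (78.9%) and in 2 of 14 windows of replication genes (14.3%), against 19.2% of all 32851 windows in the promoter table. The E2F element showed the opposite order, with 1 of 19 windows of mitosis genes (5.26%) and 6 of 14 windows of replication genes (42.9%), against 2.26% of all windows. CCAAT boxes were in 17 of 19 windows of mitosis genes (89.5%) and 9 of 14 windows of replication genes (64.3%), against 37.4% of all windows. The CCAAT box was the most frequent of the 3 motifs in both sets, as it was over all windows. These are matches of letters and not measured binding sites, and no test of the differences was made.

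**Figure D1:**
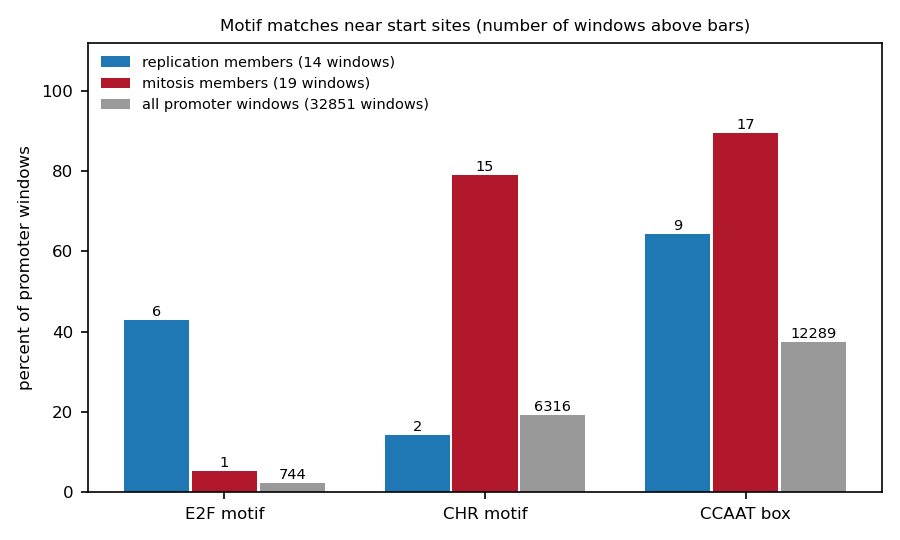
Share of 300-base promoter windows, in percent, that hold the CHR, E2F or CCAAT motif on either strand, for replication genes (14 windows), mitosis genes (19 windows) and all 32851 windows, with the number of windows above each bar. CHR is in 78.9% of windows of mitosis genes and the E2F element in 42.9% of windows of replication genes.

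Total counts were between 14194295 and 20892176 per library. The summed expression of 9 tubule epithelium markers was 5079 to 5373 CPM (read counts scaled by total counts alone) with TNFα plus ACHP, 4737 to 4785 CPM with TNFα and 4913 to 5027 CPM with PBS. Markers of neurons set PBS replicate 1 and all 3 libraries with TNFα plus ACHP apart from the other 5 libraries. The 12 neuron markers summed to 4.19 to 4.56 CPM with TNFα plus ACHP, 26.5 to 49.1 CPM with TNFα, and 4.23, 72.7 and 55.8 CPM with PBS, and Gad2 was at 0 in every library with TNFα plus ACHP. The 7 glia markers summed to 85.1 to 88.2 CPM with TNFα plus ACHP, 132 to 160.2 CPM with TNFα, and 98.1 to 207.5 CPM with PBS, where replicate 1 was the lowest. The 10 macrophage markers summed to 16.3 to 17.7 CPM with TNFα plus ACHP, 33.8 to 36.7 CPM with TNFα and 34.5 to 37.6 CPM with PBS. The 7 fibroblast markers summed to 185 to 194 CPM with TNFα plus ACHP, 196 to 211 CPM with TNFα and 249 to 268 CPM with PBS. The 7 endothelium markers summed to 23.0 to 28.5 CPM with TNFα plus ACHP. Their sums were 28.5 to 33.1 CPM with TNFα and 29.3 to 34.0 CPM with PBS.

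The cells of all 9 libraries transcribed both sets. In CPM that also use TMM factors, as do all values of single genes below, and per kilobase of exon, Ccnd1, which encodes cyclin D1, had the highest level of the 38 genes at 292 CPM per kb over the 9 libraries. Rrm2, the small subunit of ribonucleotide reductase, followed at 80.5 CPM per kb, Pcna, the sliding clamp of the DNA polymerases, at 41.2 CPM per kb, and Top2a at 38.4 CPM per kb. The lowest levels were those of E2f1, an activating E2F factor, at 3.79 CPM per kb, and of the licensing factors Cdt1 at 4.03 CPM per kb and Cdc6 at 5.10 CPM per kb. The proliferation antigen Mki67 stood at 30.7 CPM per kb.

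After 6 h of TNFα, transcripts for replication and for mitosis were both slightly higher than with PBS. Of the 38 genes, 20 rose and 0 fell at a Benjamini-Hochberg adjusted p under 0.05 in edgeR's quasi-likelihood test over all genes (52.6% higher), against 3.31% of all tested genes that rose and 2.91% that fell. At an unadjusted p under 0.05, 33 were higher and 0 lower, and DESeq2 called 16 higher and 0 lower. The median log2 fold change was 0.20, or 1.15-fold, beside 0.00 over all tested genes. In 28 of the 38 genes all 3 TNFα libraries were above all 3 PBS libraries, against 12.3% of all tested genes. In a bulk sample, more cells in the cycle and more of these transcripts per cycling cell cannot be told apart. Without TNFα replicate 1 or without TNFα replicate 2, 10 of the 38 genes rose. Of all tested genes 252 and 275 rose in these fits, against 488 with all 9 libraries. With PBS replicate 1, which is low in neural transcripts, as the only PBS library, 7 rose, in an alternative chosen after seeing the data that takes the spread of this lone library from the other groups. With a term for the libraries that carry neural transcripts, which here sets TNFα against PBS replicates 2 and 3, 23 rose. Of the fibroblast markers 2 of 7 were lower with TNFα than with PBS, as was 1 of 9 tubule markers, Pax2 (log2 fold change -0.28, edgeR adjusted p = 0.00456), and the summed tubule markers were lower in every TNFα library than in every PBS library; their part in the result was not tested.

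**Figure D2:**
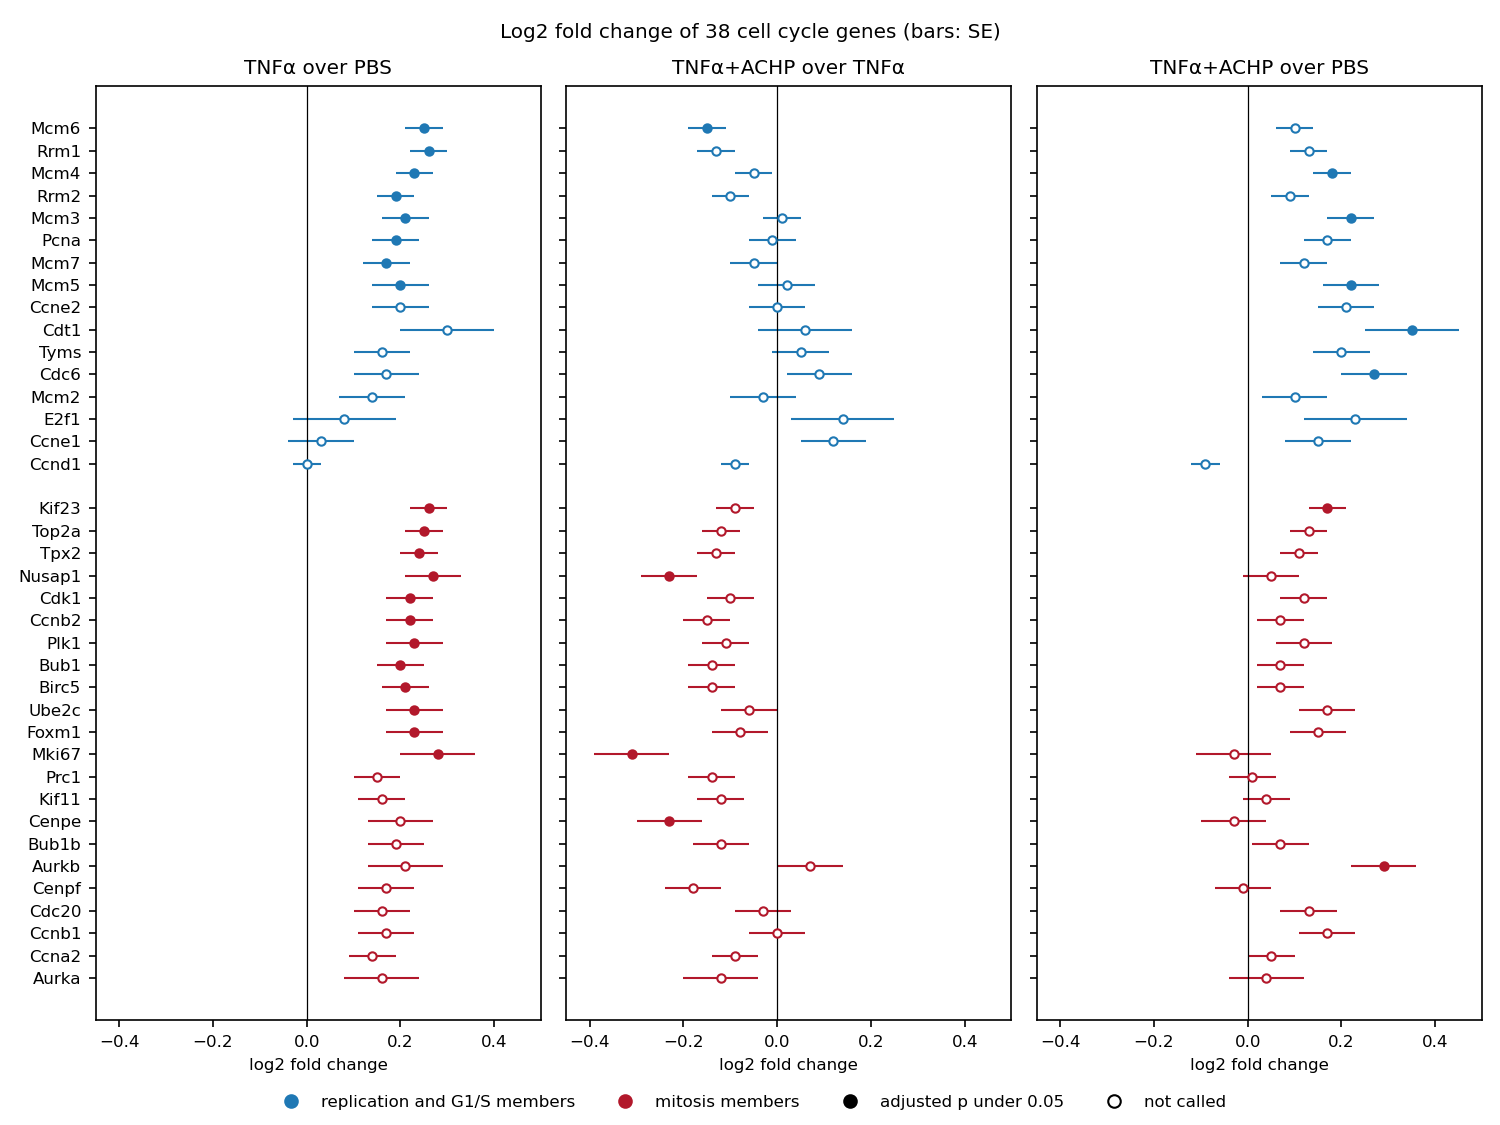
Log2 fold change of each of the 38 genes in the 3 comparisons by edgeR. Points are estimates, bars are standard errors, filled points passed an adjusted p under 0.05, and colours mark replication and mitosis genes. For TNFα over PBS 37 of 38 estimates lie above 0, with 20 filled, and Ccnd1 lies at 0.00.

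Among the replication genes 8 of 16 rose with TNFα (50%, against 3.31% of all tested genes) and 0 fell. The median log2 change was 0.19 (range 0.00 to 0.30). In 11 of 16 all TNFα libraries were above all PBS libraries, against 12.3% of all tested genes. Mcm6 had 155, 152 and 159.5 CPM with TNFα plus ACHP, 176, 174 and 167 CPM with TNFα, and 149, 144 and 141 CPM with PBS. Every TNFα library was above every other library, and PBS and TNFα libraries did not overlap. Its log2 fold change for TNFα over PBS was 0.25 ± 0.04 (SE, adjusted p = 0.000335 by edgeR). Rrm1 had 184, 169 and 184 CPM with TNFα plus ACHP, 204, 193 and 187 CPM with TNFα, and 165, 165 and 158 CPM with PBS. The TNFα libraries were again the highest 3 of the 9, and the fold change over PBS was 1.2, or 0.26 ± 0.04 (SE, adjusted p = 0.000646 by edgeR) on the log2 scale. Mcm4, another helicase subunit, had 133, 127 and 137 CPM with TNFα plus ACHP, 138, 139.5 and 132 CPM with TNFα, and 114, 119 and 117 CPM with PBS. Its 3 PBS libraries were the lowest 3 of the 9, and its log2 fold change for TNFα over PBS was 0.23 ± 0.04 (SE, adjusted p = 0.00153 by edgeR).

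Rrm2 had 224, 222 and 221 CPM with TNFα plus ACHP, 240.3, 245 and 229 CPM with TNFα, and 207, 201 and 218 CPM with PBS. All TNFα libraries were above all PBS libraries, with a log2 fold change of 0.19 ± 0.04 (SE, adjusted p = 0.00401 by edgeR). Mcm3 had 88.3, 89.4 and 94.7 CPM with TNFα plus ACHP, 92.8, 92.1 and 86.1 CPM with TNFα, and 79.8, 76.8 and 77.5 CPM with PBS. Its PBS libraries lay close together and below the other 6, and its log2 fold change for TNFα over PBS was 0.21 ± 0.05 (SE, adjusted p = 0.00649 by edgeR). Pcna had 108, 100.2 and 99.4 CPM with TNFα plus ACHP, 106, 106 and 98.1 CPM with TNFα, and 89.3, 85.1 and 97.5 CPM with PBS. PBS replicate 3 reached nearly the level of TNFα replicate 3, and the log2 fold change was 0.19 ± 0.05 (SE, adjusted p = 0.0357 by edgeR). Exons of Pcna share 20.8% of their length with another gene and the mouse annotation lists Pcna pseudogenes, so some of its reads may be missing or misplaced. The helicase subunits Mcm5 and Mcm7 also rose, by 0.20 and 0.17 on the log2 scale (edgeR adjusted p = 0.0425 and 0.0405), whereas Mcm2, at 0.14, did not pass the test (adjusted p = 0.284).

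The regulators that open S phase did not pass the test. Ccnd1 had 1296, 1301 and 1345 CPM with TNFα plus ACHP, 1437, 1385 and 1382 CPM with TNFα, and 1455, 1415 and 1340.4 CPM with PBS. Its TNFα and PBS libraries overlapped, and the log2 fold change for TNFα over PBS was 0.00 with a 95% interval of -0.07 to 0.07 (edgeR adjusted p = 0.984). Ccne1, which encodes cyclin E1, gave 0.03 with an interval of -0.12 to 0.17, and E2f1 gave 0.08 with an interval of -0.15 to 0.31. Ccne2, which encodes cyclin E2, was at 0.20 (adjusted p = 0.0695), and the thymidylate synthase gene Tyms at 0.16 (adjusted p = 0.155). The licensing factors had wide intervals, with Cdt1 at 0.30 (0.08 to 0.51) and Cdc6 at 0.17 (0.01 to 0.33). These intervals are not adjusted for the number of genes and exclude 0, while the edgeR adjusted p was 0.094 and 0.213. For Cdt1 and Ccne2 all TNFα libraries were above all PBS libraries. Exons of Ccnd1 share 23.4% of their length with another gene, as do those of Ccne2 (17.4%) and, among genes named elsewhere, Ube2c (22.8%), Mcm7 (12.6%), Ccna2 (12.5%) and Prc1 (11.1%), and such reads were left out of the counts.

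Among the mitosis genes 12 of 22 rose with TNFα (54.5%, against 3.31% of all tested genes) and 0 fell. The median log2 change was 0.21, with estimates between 0.14 and 0.28. Kif23 had 167, 153 and 157 CPM with TNFα plus ACHP, 174, 168 and 164 CPM with TNFα, and 146, 144 and 134 CPM with PBS. Its 3 PBS libraries were the lowest 3 of the 9, and the log2 fold change for TNFα over PBS was 0.26 ± 0.04 (SE, adjusted p = 0.000864 by edgeR). Top2a had 365, 327 and 345 CPM with TNFα plus ACHP, 392, 374 and 364 CPM with TNFα, and 329, 323 and 296 CPM with PBS. PBS replicate 3 was the lowest of its libraries, no TNFα library reached down to PBS, and the log2 fold change was 0.25 ± 0.04 (SE, adjusted p = 0.00121 by edgeR). Tpx2, which activates Aurora A on the spindle, had 157, 152 and 156 CPM with TNFα plus ACHP, 166, 179 and 164 CPM with TNFα, and 150.3, 145 and 135 CPM with PBS. Its TNFα libraries were the highest 3 of the 9, with a log2 fold change of 0.24 ± 0.04 (SE, adjusted p = 0.00175 by edgeR).

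Nusap1, a protein that binds spindle microtubules, had 53.5, 47.0 and 48.9 CPM with TNFα plus ACHP, 59.9, 59.3 and 55.0 CPM with TNFα, and 51.2, 48.0 and 45.5 CPM with PBS. The TNFα libraries were the highest 3 of the 9, and the log2 fold change for TNFα over PBS was 0.27 ± 0.06 (SE, adjusted p = 0.00743 by edgeR). Cdk1, the kinase that drives entry into mitosis, had 93.9, 92.6 and 90.6 CPM with TNFα plus ACHP, 96.1, 107 and 93.5 CPM with TNFα, and 86.7, 84.3 and 83.7 CPM with PBS. TNFα replicate 2 stood above the other TNFα libraries, which were still above every PBS library, and the log2 fold change was 0.22 ± 0.05 (SE, adjusted p = 0.00803 by edgeR). Ccnb2, which encodes the Cdk1 partner cyclin B2, had 40.9, 42.2 and 42.3 CPM with TNFα plus ACHP, 44.8, 48.0 and 46.7 CPM with TNFα, and 40.1, 38.7 and 41.0 CPM with PBS. Its TNFα libraries were the highest 3 of the 9, with a log2 fold change of 0.22 ± 0.05 (SE, adjusted p = 0.0151 by edgeR).

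The other 6 mitosis genes that rose were the polo kinase Plk1, the spindle checkpoint kinase Bub1, the ubiquitin-conjugating enzyme Ube2c, the chromosomal passenger Birc5, the transcription factor Foxm1 and Mki67, at log2 fold changes between 0.20 and 0.28 (edgeR adjusted p between 0.0154 and 0.0369). The 10 that did not pass were Ccnb1, Ccna2, Aurka, Aurkb, Bub1b, Kif11, Cenpe, Cenpf, Cdc20 and Prc1, with estimates between 0.14 and 0.21. These encode cyclins B1 and A2, Aurora kinases A and B, a checkpoint protein, a spindle motor, kinetochore proteins, an activator of the anaphase-promoting complex and a microtubule bundling protein. In 17 of the 22 mitosis genes the TNFα libraries were all above the PBS libraries, against 12.3% of all tested genes. Across 17 alternatives for this comparison, Mcm4, Mcm6, Rrm1, Rrm2, Top2a and Kif23 passed in each, and the other 14 of the 20 lost the call in at least 1.

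**Figure D3:**
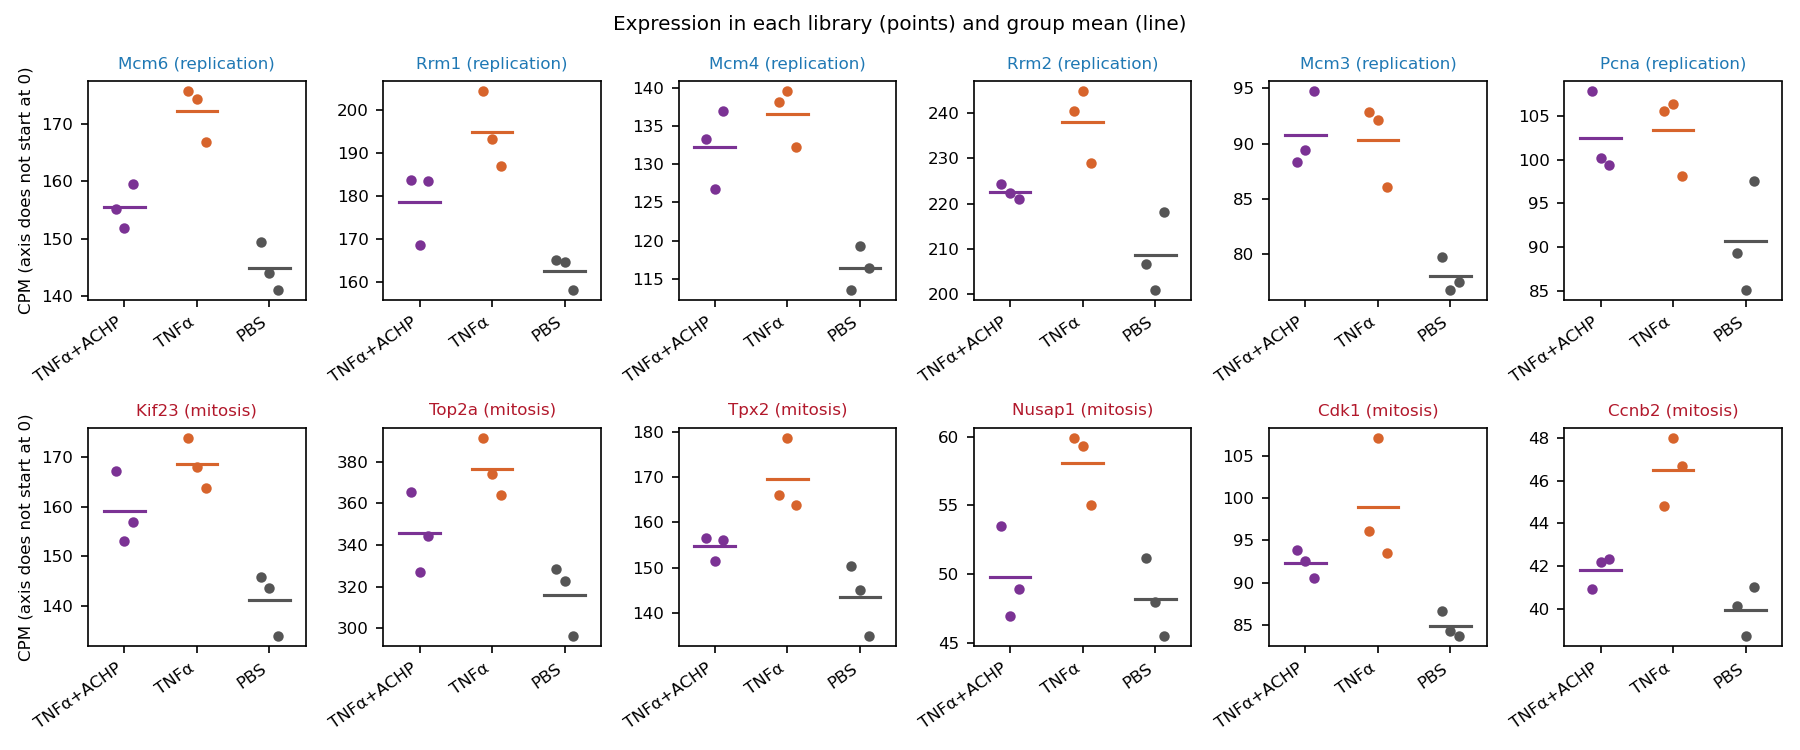
CPM in each of the 9 libraries for the members of each set with the smallest unadjusted p in the comparison of TNFα with PBS (6 genes a set, axes not starting at 0), with TNFα plus ACHP, TNFα and PBS from left to right. Points are libraries and lines mark group means. For Mcm6 the 3 TNFα libraries sit between 167 and 176 CPM, above every PBS library (141 to 149 CPM).

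The small rise with TNFα was set against the spread between replicates. Within groups the coefficient of variation, pooled over the 3 groups, ran from 2.55% for Birc5, 2.72% for Mcm6 and 2.78% for Ccnb2 to 10.6% for E2f1 and 11% for Mki67. Relative to the PBS mean, the median log2 value of the replication genes was 0.23, 0.23 and 0.13 in TNFα replicates 1 to 3, and 0.00, -0.02 and 0.00 in PBS replicates 1 to 3. For the mitosis genes it was 0.22, 0.25 and 0.15 with TNFα and 0.05, 0.01 and -0.04 with PBS. The pooled SD of these library medians was 0.047 for replication and 0.041 for mitosis. The TNFα and PBS library medians did not overlap in either set, and TNFα replicate 3 was the lowest TNFα library in both. PBS replicate 3 was low for most mitosis genes, with 4 of 22 above the log2 mean of its group. The lowest were Mki67 at -0.22 and Cenpe at -0.20, which have long exons (10.1 and 8.62 kb). Order by length was not strict, with Cenpf (15.4 kb) at -0.10 and Bub1b (4.28 kb) at -0.15. The replication gene Rrm1 (11 kb) was at -0.04. Over all tested genes the median deviation of PBS replicate 3 was -0.02 in the fifth with the longest exons. It was 0.032 in the fifth with the shortest. The part of exon length in these values was not tested.

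**Figure D4:**
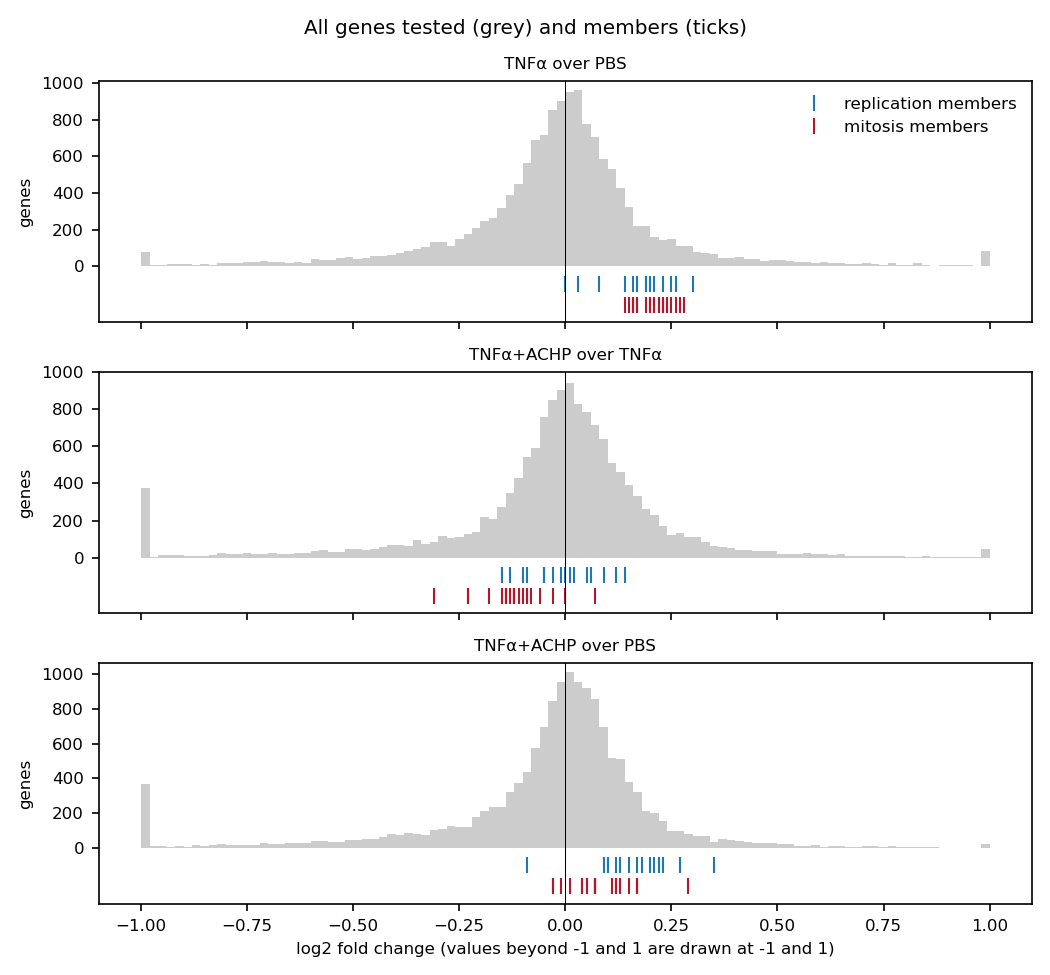
Number of genes by log2 fold change for all 14747 tested genes (grey histogram, values beyond 1 in either direction drawn at the ends), with ticks for the 16 replication and 22 mitosis genes, in the 3 comparisons. For TNFα over PBS the medians are 0.19 for replication genes, 0.21 for mitosis genes and 0.00 for all genes.

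Of 56 other mitosis genes 22 rose with TNFα over PBS and 0 fell by edgeR (39.3% higher, median log2 fold change 0.19). Of 47 other replication genes 10 rose and 0 fell (21.3% higher, median 0.15). Over all tested genes 3.31% rose and 2.91% fell. Without TNFα replicate 1, without TNFα replicate 2 and without PBS replicate 3, 6, 12 and 11 of the other mitosis genes rose. Of the other replication genes 2, 4 and 4 rose. Calls over all tested genes also fell, from 488 higher to 252 without TNFα replicate 1 and 275 without TNFα replicate 2. Without PBS replicate 2 or without TNFα replicate 3, 5 of the other replication genes rose, and with PBS replicate 1 as the only PBS library 2 of them rose and 0 of the other mitosis genes (23 at an unadjusted p under 0.05 in edgeR). Ndc80, a kinetochore subunit, had 40.2, 38.1 and 38.7 CPM with TNFα, against 31.3, 34.6 and 27.6 CPM with PBS. The groups did not overlap, and its log2 fold change was 0.33 ± 0.08 (SE, adjusted p = 0.0152 by edgeR). The microtubule depolymerase Kif2c gave 0.31 ± 0.06 (SE, adjusted p = 0.00171 by edgeR) and the cytokinesis kinesin Kif20a gave 0.30 ± 0.06 (SE, adjusted p = 0.00227 by edgeR). Among the replication genes the largest called changes were those of Ticrr, which fires origins, at 0.43 ± 0.09 (SE, adjusted p = 0.00505 by edgeR), of Mcm10, a replication fork protein, at 0.35 ± 0.08 (SE, adjusted p = 0.00666 by edgeR), and of the exonuclease gene Exo1 at 0.30 ± 0.09 (SE, adjusted p = 0.0471 by edgeR).

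Most drivers and brakes of the cycle did not pass the test for TNFα over PBS, where 3.31% of all tested genes rose and 2.91% fell. Of 13 genes that drive G1, 0 rose and 1 fell with TNFα by edgeR and by DESeq2 (5 higher and 1 lower at an unadjusted p under 0.05 in edgeR), at a median of 0.07. The gene that fell was Ccnd2, which encodes cyclin D2, with 103, 101 and 99.3 CPM with TNFα plus ACHP, 86.3, 77.2 and 80.8 CPM with TNFα, and 101, 95.4 and 90.2 CPM with PBS. Its TNFα libraries were the lowest 3 of the 9, and its log2 fold change was -0.23 ± 0.05 (SE, adjusted p = 0.00824 by edgeR). The call was lost without TNFα replicate 2, and without PBS replicate 3, 1 of these genes rose. Of 22 genes that restrain the cycle 2 rose (9.09%), and the median was -0.01. These were the repressor E2F genes E2f8 at 0.29 ± 0.06 (SE, adjusted p = 0.00539 by edgeR) and E2f7 at 0.28 ± 0.07 (SE, adjusted p = 0.0205 by edgeR). By edgeR 0 of the 22 rose without TNFα replicate 1 (4 at an unadjusted p under 0.05) and 0 with PBS replicate 1 as the only PBS library (3 unadjusted), while 1 rose without TNFα replicate 2, without PBS replicate 3 and with DESeq2.

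When ACHP was given with TNFα, a few of the 38 genes were lower than with TNFα alone. By edgeR 4 fell and 0 rose (10.5% lower), against 4.46% of all tested genes that fell and 2.71% that rose, with 15 lower and 0 higher at an unadjusted p under 0.05, and the median log2 fold change was -0.09 beside 0.00 over all genes. In 12 genes all libraries with TNFα plus ACHP were below all TNFα libraries, against 13.3% of all genes. Only 1 gene of the 38, Ccne1, had all 3 libraries above, against 12.4% of all genes. Of the replication genes 1 of 16 fell, at a median of -0.01 with 8 estimates on each side of 0, and of the mitosis genes 3 of 22 fell, at a median of -0.12 with 20 estimates below 0. Neuron markers summed lower in every library with TNFα plus ACHP than in every TNFα library, with 8 of 12 called lower, as did glia markers, with 6 of 7 called lower, so ACHP and the source of these transcripts cannot be told apart in this comparison. With a term for them, whose size rests on the 3 PBS libraries, 1 of the 38 genes fell. Macrophage markers were also lower with TNFα plus ACHP, with 6 of 10 called, and 5 of 9 tubule markers were higher. Lower too were 2 of 7 fibroblast markers and 1 of 7 endothelium markers. The part of these markers in the result was not tested.

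Mcm6, with the values given above, fell by 0.15 ± 0.04 on the log2 scale (SE; edgeR adjusted p = 0.0219), and its libraries with TNFα plus ACHP lay between those with PBS and those with TNFα. Mki67 had 326, 261 and 263 CPM with TNFα plus ACHP, 349, 362 and 346 CPM with TNFα, and 324, 301 and 247 CPM with PBS. Replicate 1 with TNFα plus ACHP was at the level of PBS replicate 1 and the other two lay between PBS replicates 2 and 3, below every TNFα library, and the log2 fold change for TNFα plus ACHP over TNFα was -0.31 ± 0.08 (SE, adjusted p = 0.0167 by edgeR). Cenpe, a kinetochore motor, had 149.8, 130.4 and 138 CPM with TNFα plus ACHP, 162, 171 and 156 CPM with TNFα, and 151, 152 and 123 CPM with PBS. The groups with and without ACHP did not overlap, and the log2 fold change was -0.23 ± 0.07 (SE, adjusted p = 0.0348 by edgeR). Nusap1, described above, was at -0.23 ± 0.06 (SE, adjusted p = 0.0228 by edgeR). Rrm1, at -0.13 (adjusted p = 0.0799), and Ccnd1, at -0.09 (adjusted p = 0.112), did not pass the test although their groups did not overlap. None of the 38 genes was called by edgeR without TNFα replicate 1, without TNFα replicate 2 or without replicate 2 with TNFα plus ACHP, where 10, 12 and 11 were lower at an unadjusted p under 0.05. DESeq2 called 2 lower. Without TNFα replicate 3, 2 fell, without replicate 3 with TNFα plus ACHP 1 fell, and without replicate 1 with TNFα plus ACHP 7 fell, and without PBS replicate 3, which enters through the shared estimate of spread, 9 fell.

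By edgeR 7 of the 56 other mitosis genes (12.5%) were lower with TNFα plus ACHP than with TNFα and 0 were higher. Their median was -0.10, and over all tested genes 4.46% were lower and 2.71% higher. Of the 47 other replication genes 0 were called by edgeR or DESeq2, at a median of -0.04. At an unadjusted p under 0.05 in edgeR 2 of these were higher and 10 lower. Fewer of the other mitosis genes fell without TNFα replicate 1, without TNFα replicate 2 and without replicate 2 with TNFα plus ACHP, at 1, 2 and 1 genes, and 2 fell with the term for neural transcripts, while 11 fell without PBS replicate 3. Hmmr, a spindle protein, had 77.6, 75.6 and 78.8 CPM with TNFα plus ACHP, 89.1, 94.9 and 89.3 CPM with TNFα, and 83.0, 80.0 and 72.7 CPM with PBS. The TNFα libraries were the highest 3 of the 9, and the log2 fold change for TNFα plus ACHP over TNFα was -0.24 ± 0.05 (SE, adjusted p = 0.00518 by edgeR). Kif20b, a kinesin of cytokinesis, gave -0.23 ± 0.06 (SE, adjusted p = 0.0297 by edgeR) and Cks2, a Cdk1 subunit, gave -0.23 ± 0.06 (SE, adjusted p = 0.032 by edgeR). Ccnd2 was higher, at 0.31 ± 0.05 (SE, adjusted p = 0.000459 by edgeR), and its libraries with TNFα plus ACHP overlapped those with PBS. E2f8 fell by 0.28 on the log2 scale (edgeR adjusted p = 0.00652), and Btg2, an antiproliferative gene, was at 0.16 ± 0.04 (SE, adjusted p = 0.0195 by edgeR). With the term for neural transcripts edgeR called none of the 13 G1 drivers and none of the 22 brakes (1 driver and 1 brake higher and 2 brakes lower at an unadjusted p under 0.05). The calls of E2f8 and Btg2 were both lost without TNFα replicate 1 and without replicate 2 with TNFα plus ACHP, and that of Btg2 also without TNFα replicate 2 and without replicate 3 with TNFα plus ACHP.

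Cells given TNFα plus ACHP had more transcript than PBS cells for some replication genes. By edgeR 7 of the 38 genes were higher and 0 lower (18.4% higher), against 2.18% of all tested genes that were higher and 3.87% that were lower, at a median log2 fold change of 0.12. At an unadjusted p under 0.05, 24 were higher and 1 lower, and DESeq2 called 3 higher and 0 lower. The 7 called by edgeR were 5 of 16 replication genes, namely Mcm3, Mcm4, Mcm5, Cdc6 and Cdt1, and 2 of 22 mitosis genes, Kif23 and Aurkb. Of these, Cdc6, Cdt1 and Aurkb were not called for TNFα over PBS (edgeR adjusted p = 0.213, 0.094 and 0.11). Their log2 fold changes in that comparison were 0.17, 0.30 and 0.21. For TNFα plus ACHP over TNFα they were 0.09, 0.06 and 0.07 (edgeR adjusted p = 0.509, 0.803 and 0.648). A difference between both TNFα groups was thus not shown for these genes. The median log2 fold change for TNFα plus ACHP over PBS was 0.18 for replication and 0.07 for mitosis. In 21 genes all libraries with TNFα plus ACHP were above all PBS libraries, 13 of them replication genes, against 10.7% of all tested genes, and in 0 were all below, against 9.94%. Neural transcripts set PBS replicates 2 and 3 above the libraries with TNFα plus ACHP, with 8 of 12 neuron and 6 of 7 glia markers called lower with TNFα plus ACHP. A term for them leaves PBS replicate 1 as the only PBS library that sets the estimates, with its spread taken from the other libraries, and then edgeR called 0 of the 38 genes (8 higher and 3 lower at an unadjusted p under 0.05), at medians of 0.17 for replication and 0.04 for mitosis. Of the macrophage markers 7 of 10 were lower with TNFα plus ACHP than with PBS, as were 3 of 7 fibroblast markers. Lower too was 1 of 7 endothelium markers, and 2 of 9 tubule markers were higher. The part of these markers in the result was not tested. Without PBS replicate 2, 4 genes were higher, and without replicate 3 with TNFα plus ACHP 2 were.

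The helicase genes Mcm3 and Mcm4, with the values given above, were at 0.22 ± 0.05 (SE, adjusted p = 0.00553 by edgeR) and 0.18 ± 0.04 (SE, adjusted p = 0.0105 by edgeR) on the log2 scale for TNFα plus ACHP over PBS. Mcm5 had 55.8, 60.1 and 61.9 CPM with TNFα plus ACHP, 60.8, 59.1 and 55.9 CPM with TNFα, and 52.5, 47.6 and 53.2 CPM with PBS. Its PBS libraries were the lowest 3 of the 9, and the log2 fold change over PBS was 0.22 ± 0.06 (SE, adjusted p = 0.0256 by edgeR). Aurkb had 25.5, 26.5 and 24.9 CPM with TNFα plus ACHP, 21.8, 24.9 and 26.8 CPM with TNFα, and 20.7, 21.5 and 20.9 CPM with PBS. PBS libraries were closely grouped and below the rest, and the log2 fold change was 0.29 ± 0.07 (SE, adjusted p = 0.0256 by edgeR). Kif23 was at 0.17 ± 0.04 (SE, adjusted p = 0.0213 by edgeR). Ube2c had 57.9, 63.3 and 67.1 CPM with TNFα plus ACHP, 65.6, 68.1 and 62.3 CPM with TNFα, and 53.4, 57.3 and 56.6 CPM with PBS. Its libraries with TNFα plus ACHP were spread but all above PBS, and at 0.17 it did not pass the test (edgeR adjusted p = 0.0858). Cdc6 was at 0.27 ± 0.07 (SE, adjusted p = 0.0348 by edgeR) and Cdt1 at 0.35 ± 0.10 (SE, adjusted p = 0.0387 by edgeR). Each of the 6 libraries compared was also left out in turn. The call of Aurkb was kept in 0 of these 6 fits and that of Cdc6 in 1. Those of Mcm5, Cdt1 and Kif23 were kept in 3 each, that of Mcm4 in 5 and that of Mcm3 in 6.

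Of the other cell cycle genes, few were above PBS with TNFα plus ACHP by edgeR, and 0 were below. Higher were 6.38% of other replication genes, 5.36% of other mitosis genes, 7.69% of G1 drivers and 4.55% of brakes. Over all tested genes 2.18% were higher and 3.87% lower. The shares of the lists rest on 1 or 3 genes each. Of 47 other replication genes 3 were higher, namely Timeless, a fork protection gene, at 0.29 ± 0.08 (SE, adjusted p = 0.0315 by edgeR), the polymerase subunit gene Pola2 at 0.28 ± 0.07 (SE, adjusted p = 0.0197 by edgeR), and Uhrf1, which guides maintenance of DNA methylation, at 0.15 ± 0.04 (SE, adjusted p = 0.0418 by edgeR). Of 56 other mitosis genes 3 were higher, namely Ccnf, which encodes cyclin F, at 0.25 ± 0.07 (SE, adjusted p = 0.0327 by edgeR), Kif2c at 0.22 ± 0.06 (SE, adjusted p = 0.0213 by edgeR) and the condensin subunit gene Ncapd2 at 0.17 ± 0.05 (SE, adjusted p = 0.0433 by edgeR). Among 13 genes that drive G1, Myc was higher, at 0.17 ± 0.04 (SE, adjusted p = 0.0193 by edgeR). Among 22 genes that restrain the cycle, Btg2 was higher, at 0.18 ± 0.04 (SE, adjusted p = 0.00826 by edgeR). DESeq2 called 0 of the other replication and 0 of the other mitosis genes (10 and 7 higher at an unadjusted p under 0.05), and with the term for neural transcripts edgeR called 0 genes of the 4 lists (6 other replication genes, 5 other mitosis genes, 2 drivers and 1 brake higher unadjusted). Without replicate 3 with TNFα plus ACHP, 1 other replication gene and 0 other mitosis genes were higher (12 and 8 unadjusted), and without PBS replicate 2, 0 and 1 were (11 and 13 unadjusted). Without PBS replicate 1, 5 other replication genes were higher. Without TNFα replicate 1, without TNFα replicate 2, and without replicate 1 or replicate 2 with TNFα plus ACHP, 1 other mitosis gene was higher in each. The call of Myc was also lost without PBS replicate 1, without PBS replicate 2 and without replicate 2 or replicate 3 with TNFα plus ACHP.

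Set side by side, both sets had close medians with TNFα, while with TNFα plus ACHP the replication median was the higher one. Relative to the PBS mean, the replication median was 0.14, 0.13 and 0.23 in replicates 1 to 3 with TNFα plus ACHP, and the mitosis median was 0.12, 0.07 and 0.09 in the same libraries. The replication median was higher in each of these 3 libraries, in replicate 1 by less than the SD of 0.047 between library medians of the replication genes. With TNFα the replication medians of 0.23, 0.23 and 0.13 stood beside mitosis medians of 0.22, 0.25 and 0.15, a gap below that SD in each library. With PBS they were 0.00, -0.02 and 0.00 beside 0.05, 0.01 and -0.04, so the replication median was also the higher one in PBS replicate 3. That SD is not the spread of the gap between both sets. The 3 comparisons share libraries, so their values are not independent, and no test of the gap between both sets was made.

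**Figure D5:**
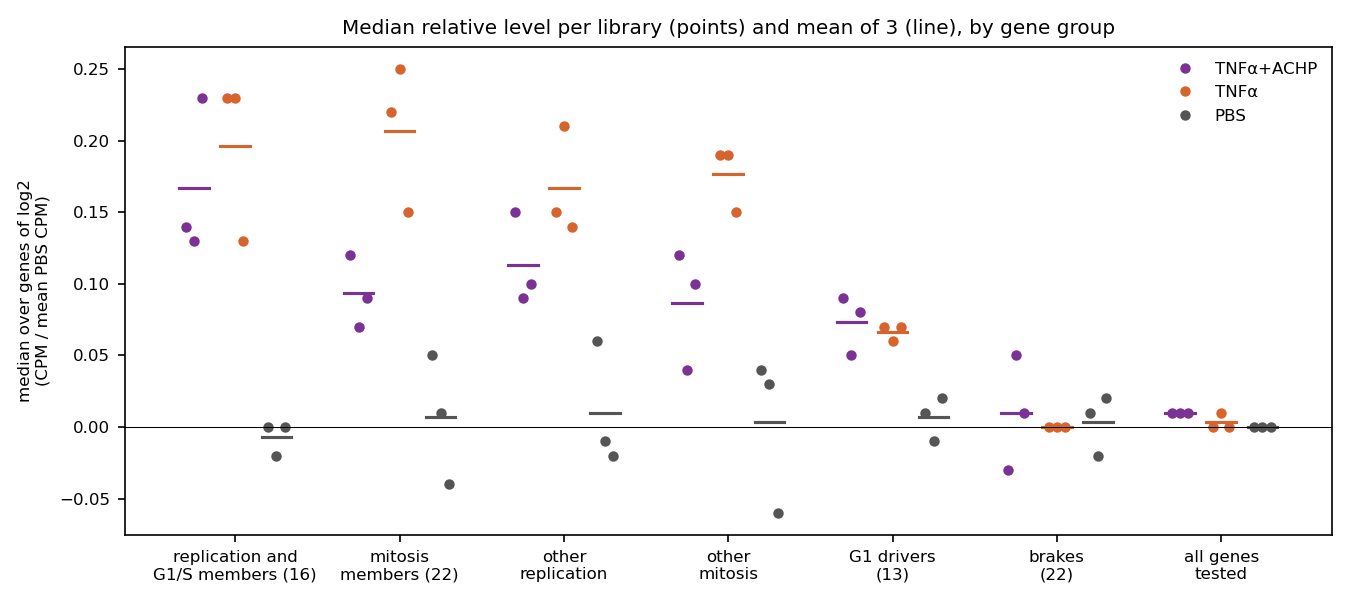
Median over the genes of each list of the log2 ratio of CPM to the mean CPM with PBS, in each of the 9 libraries. Points are libraries and lines are means of 3, with TNFα plus ACHP, TNFα and PBS from left to right, for both sets of members, the 4 other cell cycle lists and all tested genes. All 3 TNFα libraries lie between 0.13 and 0.25 in both sets of members, while with TNFα plus ACHP the mitosis medians lie between 0.07 and 0.12.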

How the data were processed

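Raw read counts per Ensembl gene were deposited for 9 libraries. Per the file headers the authors made these counts by running featureCounts 2.0.1, defaults unchanged, with the Ensembl 109 annotation of GRCm39; per the submitters' processing notes STAR, featureCounts and DESeq2 were used and the build was mm10. Intervals of 35 of the 38 genes do not overlap their GRCm38 positions, so the counts are on GRCm39. At these defaults a read that overlaps more than 1 gene or aligns to several places is not counted, and strand is ignored. Named pseudogenes exist for 4 of the genes (Ccnb1, Ccnb2, Pcna and Tyms).

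Groups and replicate numbers came from the sample titles. Symbols were matched for 52029 identifiers, which hold 99.6% of counts. The tests used edgeR 4.0.16 and limma 3.58.1 in R 4.3.3. After filterByExpr (14747 genes left) and TMM scaling (0.993 to 1.01), a single quasi-likelihood fit of all 9 libraries had 1 mean per group, with a biological coefficient of variation of 4.01%. Calls are at an adjusted p under 0.05, with Benjamini-Hochberg adjustment across every tested gene. Standard errors derive from the F statistic. Replicates differed beyond sampling noise, with 1.81 to 6.00 as the chi-square divided by its degrees of freedom. The pipeline was tested on simulated data.

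The 38 genes and the other lists were chosen with earlier results of these data known, so no list test is given and the counts are descriptions. All 38 are named, with values per library for the genes with the smallest unadjusted p in each set and comparison (6 for TNFα over PBS, 3 for the others), and at most 3 called genes of largest change from each other list. Alternatives were DESeq2 1.42.0, RLE factors, total counts alone, no filter, at least 1 CPM in 3 libraries, a block for replicate number, a fit of the 6 libraries compared, neural transcripts as a term or covariate, leaving out each library, an adjusted p under 0.01, and, chosen after seeing the data, PBS replicate 1 as the only PBS library. Promoters are from RefSeq on GRCm38.p6.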

Additional observations from a re-analysis of the deposited data

How the results depend on the processing

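No gene of the 38 that was called changed direction under the alternatives named here. In the comparison of TNFα with PBS 6 of 20 called genes passed under each of 17 alternatives, and in the comparisons with ACHP 0 of 4 and 0 of 7 did.

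For TNFα over PBS, an adjusted p under 0.01 left 10 of the 38 genes higher and, of all genes, 248 higher and 194 lower. With PBS replicate 1 as the only PBS library 7 were higher, of all genes 277 were higher and 141 lower, and the mitosis median was 0.17. Leaving out each of the 6 libraries compared in turn gave 10 to 23 genes higher, 252 to 479 of all genes higher and 216 to 478 lower, a replication median of 0.16 to 0.22 and a mitosis median of 0.19 to 0.23.

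For TNFα plus ACHP over TNFα, genes of the 38 that fell numbered 8 with no filter, 2 with DESeq2 (247 of all genes higher), 9 with only the 6 libraries, 7 with the replicate block, 2 with the neuron covariate (75 of all genes higher, 159 lower), 1 with the neural term (44 higher, 99 lower, mitosis median -0.18) and 0 at an adjusted p under 0.01 (147 higher, 321 lower). Leaving out each of the 6 libraries compared gave 0 to 7 genes lower, 157 to 478 of all genes higher and 384 to 617 lower, and medians of -0.03 to 0.02 for replication and -0.15 to -0.10 for mitosis. Without PBS replicate 1, 2 or 3, which enter through the shared estimate of spread, 6, 4 and 9 genes were lower.

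For TNFα plus ACHP over PBS, genes of the 38 that were higher numbered 11 with no filter (862 of all genes lower), 3 with DESeq2 (209 of all genes higher), 3 with only the 6 libraries (148 higher, 345 lower), 0 with the neuron covariate (55 higher, 114 lower), 0 with the neural term (53 higher, 109 lower), 1 at an adjusted p under 0.01 (111 higher, 316 lower) and 0 with PBS replicate 1 alone (89 higher, 148 lower). Leaving out each of the 6 libraries compared gave 2 to 9 genes higher and 0 to 1 lower, 134 to 427 of all genes higher and 357 to 731 lower, and medians of 0.16 to 0.19 for replication and 0.07 to 0.11 for mitosis. The causes were not tested.

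Estimates of some genes that did not pass the test changed sign, 8, 39 and 27 times in the 3 comparisons, without passing it in those settings. For TNFα over PBS Ccnd1 was at 0.01 with the neuron covariate and 0.02 with the neural term, and Aurka at -0.06 with PBS replicate 1 alone. Leaving out each of the 6 libraries compared gave -0.03 to 0.02 for Ccnd1 and -0.06 to 0.14 for E2f1.

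For TNFα plus ACHP over TNFα, Ccne2 and Ccnb1 were at 0.00 with RLE factors, with the stricter filter and with only the 6 libraries. With the neuron covariate Mcm2 was at 0.01, Mcm3 at -0.04, Mcm5 at -0.05, Ccne2 at -0.10, Cdt1 at -0.08, Ccnb1 at -0.01 and Ube2c at 0.01. With the neural term Mcm2 was at 0.08, Mcm3 at -0.04, Mcm4 at 0.01, Mcm5 at -0.04, Pcna at 0.02, Ccne2 at -0.13, Cdt1 at -0.13 and Ube2c at 0.03. Leaving out each of the 6 libraries compared gave -0.01 to 0.14 for Aurkb, -0.07 to 0.05 for Ccnb1, -0.04 to 0.02 for Ccne2, -0.03 to 0.11 for Cdt1, -0.12 to 0.01 for Mcm2, -0.03 to 0.03 for Mcm3, -0.02 to 0.06 for Mcm5 and -0.05 to 0.01 for Pcna.

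For TNFα plus ACHP over PBS, Aurka, Bub1b, Prc1 and Nusap1 were at -0.18, -0.02, -0.05 and -0.04 with the neuron covariate, at -0.19, -0.03, -0.06 and -0.04 with the neural term and at the same values with PBS replicate 1 alone, which for this comparison is the same contrast as the neural term. Leaving out each of the 6 libraries compared gave -0.06 to 0.14 for Aurka, -0.01 to 0.11 for Bub1b, 0.00 to 0.12 for Ccna2, -0.12 to 0.03 for Cenpe, -0.09 to 0.05 for Cenpf, -0.15 to 0.04 for Mki67, -0.01 to 0.09 for Nusap1 and -0.04 to 0.04 for Prc1.

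With the replicate number as a block 25, 7 and 8 of the 38 genes were called in the 3 comparisons. The correlation of deviations between samples of the same number was 0.17, 0.19 and -0.02 for TNFα and PBS, 0.00, 0.02 and 0.03 for TNFα plus ACHP and TNFα, and -0.07, -0.07 and -0.11 for TNFα plus ACHP and PBS, so the numbers are not shown to pair the samples, and not every sample correlated best with its own number. How far depth limits the intervals of E2f1, Cdt1 and Cdc6, which are among the genes of the 38 with the fewest reads, was not tested.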
